A study of Mus musculus with 4 samples.

Results

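A set of 10 genes that mark platelets and macrophages was followed in hearts of mouse embryos at embryonic day 9.5. It held the platelet genes Cxcl4, Gp1bb and Gp9 and the macrophage and leukocyte genes Ptprc, Csf1r, Cd68, Tyrobp, C1qa, Aif1 and Mrc1. The 10 were among 16675 genes measured and were found by their symbols in the platform's probe table, which names platelet factor 4 (Pf4) as Cxcl4. They had 13 probes: 7 genes had 1 probe, and Ptprc, Csf1r and Cd68 had 2. For those 3 genes the probe with the higher mean over the 4 arrays was taken as the main one, and the other is given beside it. The hearts were whole hearts of C57bl/6 x129 hybrid embryos. The Salv CKO group was 2 pools in which the gene for Salvador (Sav1) had been conditionally knocked out, and the Control group was 2 pools labelled wild-type. Salvador holds the Hippo kinases together. The Cre driver, the number of hearts in a pool and whether Control embryos carried a Cre are not stated in the labels. The comparison was made to find genes under Hippo control during heart formation.

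At this stage the first blood cells leave the yolk sac and reach the heart with the circulation. Besides primitive red cells, the yolk sac makes a first wave of megakaryocytes and of macrophages, and some of these macrophages settle in organs. Platelets carry the GPIb-IX-V complex, the receptor for von Willebrand factor, of which Gp1bb and Gp9 are subunits, and they store the chemokine encoded by Cxcl4 in their alpha granules. Macrophages need signals through the receptor encoded by Csf1r, and they share the phosphatase CD45 (Ptprc) with nearly all white blood cells.

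The promoters of the 3 platelet genes are shown because these genes lay on the same side of Control in both Salv CKO pools, and because GATA and Ets factors are known to act on megakaryocyte genes. Csf1r and Cd68 also lay below Control in both pools, as did 29.0% of all genes, so that side is not particular to the platelet genes. The sequences are the 250 bases before the RefSeq start in GRCm38.p6. They lie at chr5:90772185-90772434 (plus strand) for Cxcl4, chr16:18622404-18622653 (minus strand) for Gp1bb and chr6:87777820-87778069 (plus strand) for Gp9. They run 5′ to 3′. Capitals mark a match, on either strand, to GATAA, one form of the GATA factor site, or to AGGAAG, one form of Ets sites.
Cxcl4: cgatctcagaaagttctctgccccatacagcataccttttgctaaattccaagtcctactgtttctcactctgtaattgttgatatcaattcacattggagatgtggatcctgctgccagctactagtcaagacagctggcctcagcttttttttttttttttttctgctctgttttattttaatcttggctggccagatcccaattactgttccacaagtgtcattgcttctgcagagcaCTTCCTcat
Gp1bb: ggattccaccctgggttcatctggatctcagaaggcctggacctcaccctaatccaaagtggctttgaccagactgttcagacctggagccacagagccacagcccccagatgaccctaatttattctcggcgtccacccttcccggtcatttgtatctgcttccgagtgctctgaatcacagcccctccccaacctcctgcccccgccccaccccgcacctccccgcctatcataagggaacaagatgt
Gp9: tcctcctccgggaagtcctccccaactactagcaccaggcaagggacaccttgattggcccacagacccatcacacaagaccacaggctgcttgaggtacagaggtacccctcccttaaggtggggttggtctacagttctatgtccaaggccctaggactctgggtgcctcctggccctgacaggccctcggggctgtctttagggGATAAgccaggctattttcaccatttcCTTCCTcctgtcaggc
Cxcl4 had 1 AGGAAG match, 9 to 4 bases before the start, and no GATAA. Gp9 had 1 match to AGGAAG, 16 to 11 bases before the start, and 1 to GATAA, 43 to 39 bases before it. Gp1bb had no exact match to either in this window. Other forms of these sites were not searched for, so it does not follow that the window lacks such sites. The marked motifs did not overlap each other. Of 32851 promoters of the same length, 29.5% held AGGAAG, 22.6% held GATAA and 6.58% held both. Windows were also read for Ptprc, Cd68, Aif1 and Mrc1. The first of 2 Ptprc windows held 3 AGGAAG matches, the second held 1 along with 2 GATAA matches, the Mrc1 window held 3 AGGAAG matches, and those of Cd68 and Aif1 held neither motif. A match describes the letters and is not evidence of binding.

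The values are one-colour Cy5 intensities, quantile normalised here, and a probe counted as above background over an intensity of 16. Median deposited intensities were 71.1 and 76.1 on the Salv CKO arrays and 77.5 and 101 on the Control arrays. Over probes above background Pearson's r was 0.986 between the Salv CKO arrays, 0.985 between the Control arrays and 0.966 to 0.971 across the groups. A difference is the mean log2 value of Salv CKO less that of Control, given with limma's standard error, and p-values were adjusted by Benjamini-Hochberg over all 16675 genes, with a threshold of 0.05. An exact permutation test of a single gene has p = 0.333 as its smallest value with 2 pools against 2, so a call here draws on limma's pooled estimate of the spread. Sav1 itself was at 582 and 562 in Salv CKO, against 755 and 630 in Control (-0.27 ± 0.13, limma adjusted p = 0.266); whether its probe lies in the deleted part is not known, so it does not check the labels. Of the calls, 46.3% were higher in Salv CKO, and 22.8%, 40.6% and 6.88% with arrays centred on their medians, divided by their 75th percentiles or left as deposited.

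Of the 10 genes, 1 fell in the Salv CKO hearts, 0 rose and 9 did not pass the test. The one that fell was Cxcl4, by 1.07 ± 0.17 on the log2 scale. Over all genes 10.6% were called, 5.70% lower and 4.92% higher, so 1 of 10 is near the background. At an unadjusted p under 0.05 the count was 3 of 10, with Csf1r and with Aif1, which was below background, where 26.7% of all genes reached that level. With any array left out limma called none of the 16675 genes (3172 to 3438 had an unadjusted p under 0.05). Csf1r lay about as far down as Cxcl4, at -1.06 ± 0.24, without passing (limma adjusted p = 0.0589). In all 7 of the genes were above background on all 4 arrays, and Ptprc, Tyrobp and Aif1 were above it on none. Both Salv CKO pools lay below both Control pools for 6 of the 10 genes and above them for 1, where 29.0% and 25.2% of all genes did so; Aif1, among the 6, and Ptprc, the 1 above, were below background. The median difference of the 10 was -0.33, and -0.21 with the 3 genes at background entered at 0, against -0.04 and 0.00 for all genes treated in the same ways. In bulk hearts, fewer cells of a type and less RNA per cell cannot be told apart.

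**Figure D1:**
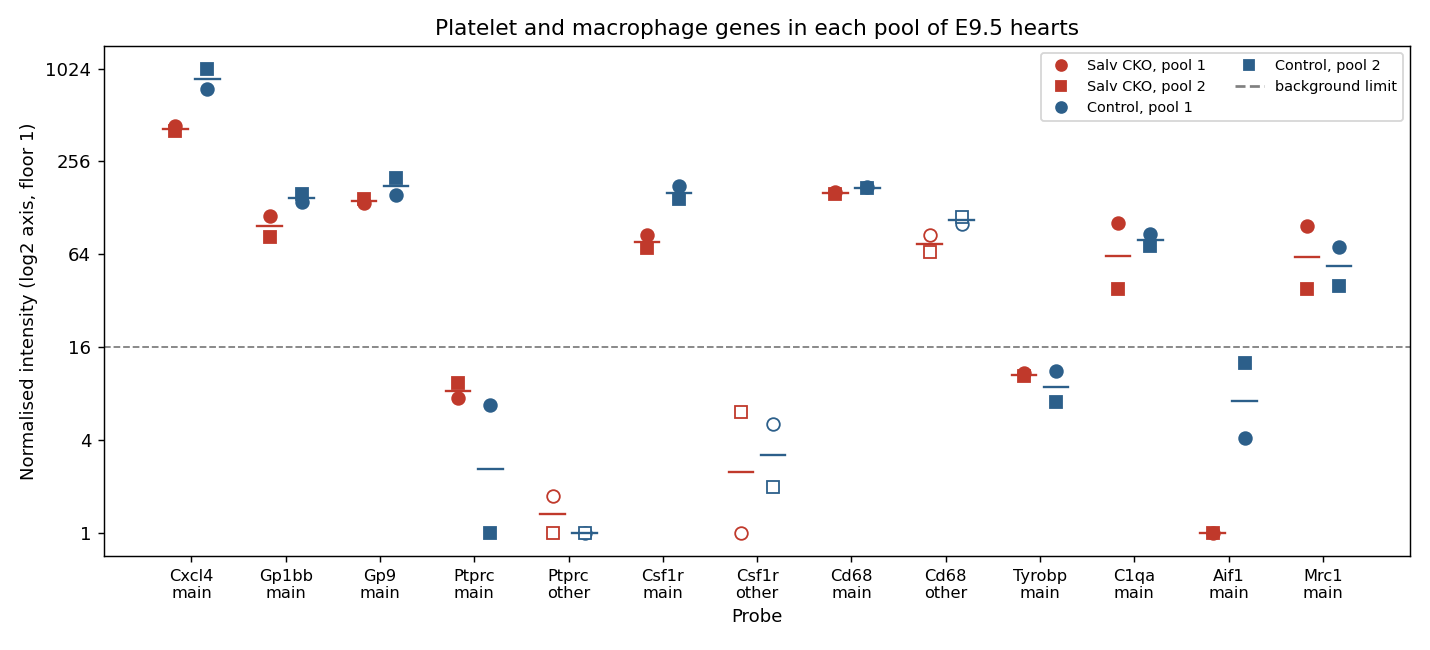
Normalised intensity (log2 axis, values under 1 drawn at 1) of each of the 13 probes, with Salv CKO left of Control, circles for pool 1, squares for pool 2, a bar at the mean of the log2 values, and open symbols for the second probe of a gene. Cxcl4 and the main Csf1r probe show both Salv CKO pools well below both Control pools, the C1qa and Mrc1 values of the Salv CKO pools spread around those of Control, and Ptprc, Tyrobp and Aif1 stay under the dashed background limit of 16.

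Cxcl4 (probe mMC012732) encodes platelet factor 4, a chemokine released from platelet alpha granules and one of the most specific products of megakaryocytes. Its normalised intensity was 434 and 403 in the Salv CKO pools, against 759 and 1015 in the Control pools. The Salv CKO pools lay close together and both Control pools stood above them. On the log2 scale the means were 8.71 ± 0.08 in Salv CKO and 9.78 ± 0.30 in Control (SD, n = 2 each). The level in Salv CKO was 0.476 of that in Control (limma adjusted p = 0.0255). The call was lost when any 1 array was left out (adjusted p = 0.199 to 0.249), when limma was run with no intensity trend (0.145) and with a floor of 16 (0.107).

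Gp1bb (mMC021737), the beta chain of platelet glycoprotein Ib, was at 113 and 83.4 in Salv CKO, against 139 and 158 in Control. All values of Salv CKO lay below those of Control, with a difference of -0.61 ± 0.25 that did not pass (limma adjusted p = 0.201). RefSeq places Gp1bb next to Septin5 with overlapping spans, and in humans the 2 genes share read-through transcripts; whether the probe also picks up Septin5 RNA was not tested. Gp9 (mMC017705), the small subunit that the complex needs to reach the surface, was at 138 and 145 in Salv CKO, against 155 and 200 in Control. Its groups were also apart, by less than for Gp1bb: -0.32 ± 0.21 (limma adjusted p = 0.412).

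The 2 other subunits of the complex differed in how well they were measured. Gp1ba, the chain that binds von Willebrand factor, was at 150 and 157 in Salv CKO, against 186 and 196 in Control (-0.31 ± 0.17, limma adjusted p = 0.319). So the 3 measured subunits lay lower in both Salv CKO pools, as 29.0% of all genes did, and none of them passed. Gp5 was above background on 1 array only, in Salv CKO, at 16.2. Ppbp, a platelet chemokine like Cxcl4, lay the other way, at 63.4 and 74.1 in Salv CKO and 49.4 and 43.3 in Control (0.57 ± 0.30, limma adjusted p = 0.311).

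Of 23 further megakaryocyte and platelet genes on the array, Gp1ba, Gp5 and Ppbp among them, 3 fell, 1 rose and 19 did not pass. By the same test 5.70% of all genes fell and 4.92% rose. Itga2b, the integrin chain that marks megakaryocytes and early blood progenitors, was at 241 and 238 in Salv CKO, against 413 and 488 in Control, a step of -0.91 ± 0.14 that resembled that of Cxcl4 in size. Vwf, the ligand of the GPIb complex, which endothelium makes too, was at 505 and 437 in Salv CKO, against 919 and 993 in Control (-1.02 ± 0.12). Tubb1, the beta-tubulin of platelets, fell by 0.55 ± 0.10. Mmrn1, a platelet and endothelial protein that binds factor V, rose by 0.97 ± 0.15. Limma adjusted p lay between 0.0143 and 0.0352 for these 4 genes. The list as a whole did not move one way. Without overlap, 6 of its genes had Salv CKO below Control and 6 above, where 29.0% and 25.2% of all genes did so. Its median difference was -0.03, against -0.04 for all genes. Among the 17 of its genes above background on all arrays the median was -0.29, again against -0.04 for all such genes. With a floor of 16 none of the 4 calls held, and that of Mmrn1 was also lost as deposited (0.55, limma adjusted p = 0.0697).

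Csf1r encodes the receptor for the cytokines Csf1 and Il34, on which tissue macrophages depend. On its main probe (mMC020360) the intensity was 84.8 and 70.1 in Salv CKO, against 177 and 145 in Control. The groups did not overlap, and the level in Salv CKO was 0.480 of that in Control. The mean log2 values were 6.27 ± 0.19 in Salv CKO and 7.33 ± 0.20 in Control (SD, n = 2 each). The difference missed the threshold as given above. It passed with arrays centred on their medians, as deposited, with a pseudocount of 16 and with either filter on dim genes (limma adjusted p = 0.0213 to 0.0439). It did not pass with the mean of a gene's probes (-0.71, limma adjusted p = 0.577), with no intensity trend (0.142) or with a floor of 16 (0.121). Nor did it pass with arrays divided by their 75th percentiles (0.0640) or with the replicate block (0.0508). With 1 array left out it lay between -1.215 and -0.879. The second probe (mMC012508) was not above background on any array, between -1.38 and 6.07, so the difference rests on the main probe alone. Of the ligands, Csf1 was at 137 and 76.5 in Salv CKO and 125 and 75.3 in Control; pool 1 was the higher in both groups and the groups overlapped (0.07 ± 0.42, limma adjusted p = 0.938). Il34, listed under the clone name 2010004A03Rik, was above background on 3 of the 4 arrays and gave no call (limma adjusted p = 0.409).

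Cd68, a glycoprotein of lysosomes that is abundant in macrophages, barely differed on its main probe (mMR029318). It was at 162 and 158 in Salv CKO, against 174 and 171 in Control. Replicates agreed closely enough that the groups stayed apart, although the difference was only -0.11 ± 0.17 (limma adjusted p = 0.744). The second probe (mMC007570) was at 84.8 and 66.0 in Salv CKO, against 101 and 112 in Control, which gave -0.50 ± 0.26 (limma adjusted p = 0.314 over all named probes). Both probes point down and neither passed.

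C1qa and Mrc1 had the widest spread between replicates among the measured genes. C1qa (mMC019379), the A chain of complement C1q, which macrophages secrete, was at 102 and 38.1 in Salv CKO, against 86.8 and 72.5 in Control. Pool 1 of Salv CKO was the highest of the 4 values and pool 2 the lowest. The difference was -0.35 ± 0.53 (limma adjusted p = 0.733), and it was -1.04 without Salv CKO pool 1 and 0.37 without Salv CKO pool 2. Mrc1 (mMC008761), the mannose receptor of tissue macrophages, was at 98.3 and 38.1 in Salv CKO, against 71.3 and 40.1 in Control. Here too the Salv CKO pools held the highest and the lowest value, with a difference of 0.20 ± 0.58 (limma adjusted p = 0.870). Without Salv CKO pool 1 the difference was -0.47 and without Control pool 2 it was -0.21.

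The other chains of C1q showed the same low pool. C1qb was at 29.4 and 12.8 in Salv CKO and 20.0 and 25.1 in Control, and C1qc at 30.6 and 21.7 in Salv CKO and 27.5 and 31.1 in Control. Pool 2 of Salv CKO was thus the lowest for all chains, and C1qb was below background in it. Neither chain was called (limma adjusted p = 0.863 and 0.831). Mrc2, a paralogue of Mrc1 found on mesenchymal cells, was at 261 and 201 in Salv CKO and 210 and 168 in Control on its main probe (0.29 ± 0.22, limma adjusted p = 0.476), while its other probe gave 1.32 ± 0.27, which passed (limma adjusted p = 0.0482 over all named probes).

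Ptprc, Tyrobp and Aif1 were not above background on any array, and no fold is given for them. Ptprc, the phosphatase CD45, was at 7.50 and 9.31 in Salv CKO and 6.79 and -1.38 in Control on its main probe (mMR031019), and its other probe (mMC020152) lay between -3.31 and 1.73. Tyrobp (mMC015985), the adaptor DAP12 of activating receptors on myeloid cells, was at 10.9 and 10.4 in Salv CKO and 11.1 and 7.03 in Control. Aif1 (mMC007546), the actin-bundling protein Iba1 of macrophages and microglia, was at -0.19 and 0.06 in Salv CKO and 4.13 and 12.6 in Control. Every one of these values lay under the background limit. The defining leukocyte gene Ptprc was therefore not measurable here, and the label of macrophage genes rests on Csf1r, Cd68, C1qa and Mrc1.

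Partners of these adaptors and receptors were also faint or uncalled. Fcer1g, the Fc receptor gamma chain, which signals much like Tyrobp, was at 192 and 207 in Salv CKO, against 263 and 266 in Control; the groups were apart and the difference was -0.41 ± 0.15 (limma adjusted p = 0.163). Of the receptors that pair with Tyrobp, Trem2 was above background on 1 array only, in Salv CKO, at 20.3. Siglech was at 63.4 and 30.4 in Salv CKO, against 18.1 and 25.8 in Control (1.02 ± 0.53, limma adjusted p = 0.304), and Clec5a was at 70.3 and 92.5 in Salv CKO and 60.5 and 112 in Control on its main probe. Sirpb1 was called lower (limma adjusted p = 0.0367): it was at -2.34 and -1.16 in Salv CKO, against 38.1 and 15.0 in Control. With Salv CKO set at the background limit it was at least 1.49-fold lower there, and 1 of the 2 Control arrays was above that limit. The call was lost with a pseudocount of 16 (-1.36, limma adjusted p = 0.0511) and with a floor of 16 (-0.63, limma adjusted p = 0.585). Cd22, a lectin that binds CD45, was at 82.4 and 62.4 in Salv CKO and 81.3 and 73.4 in Control, and Cd4 was above background on 1 array in each group; neither was called.

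**Figure D2:**
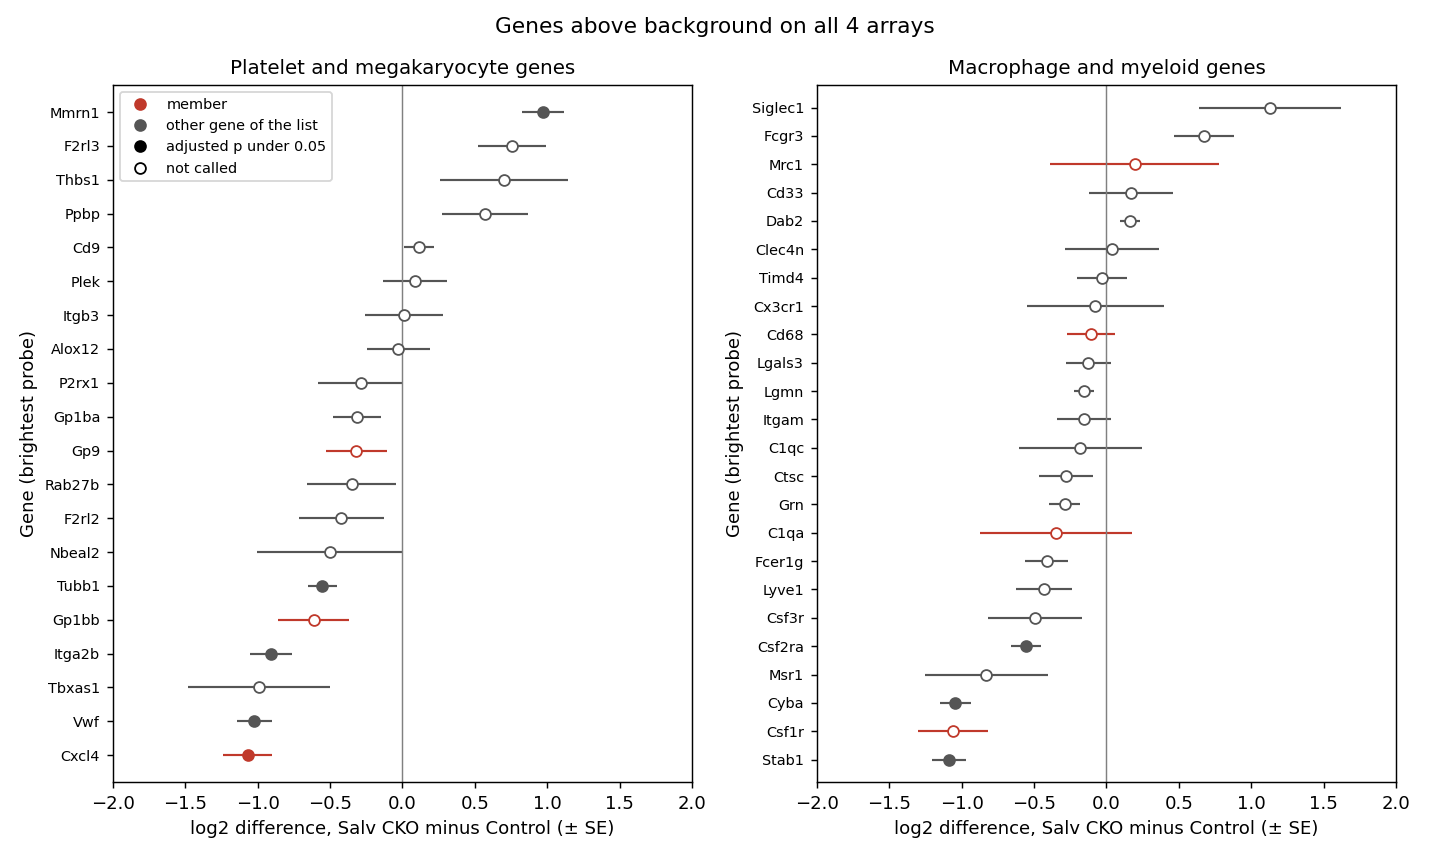
Log2 difference (Salv CKO minus Control, with limma's standard error as the bar) of platelet and megakaryocyte genes (left) and macrophage and myeloid genes (right) that were above background on all 4 arrays, sorted by size, with the 7 measured members in red and filled symbols for an adjusted p under 0.05. Cxcl4 is at the lower end of the left panel at -1.07, and Csf1r is near the lower end of the right panel at -1.06, next to Stab1 and Cyba.

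Of 39 other macrophage and myeloid genes on the array, 3 fell, 0 rose and 36 did not pass. By the same test 5.70% of all genes fell and 4.92% rose. Stab1, a scavenger receptor of macrophages and of some endothelium, was at 698 and 671 in Salv CKO, against 1326 and 1591 in Control (-1.09 ± 0.12). Cyba, a subunit of the NADPH oxidase that many cell types express, fell by 1.04 ± 0.10, and Csf2ra, a chain of the GM-CSF receptor, fell by 0.56 ± 0.10. Their limma adjusted p lay between 0.0112 and 0.0367. Like Ptprc, 8 of the 39 were below background on all arrays: Emr1, which encodes the macrophage antigen F4/80, Lyz, Ctss, Mpeg1, Cd163, Cybb, Ccr2 and Ms4a7. The microglial chemokine receptor Cx3cr1 was just above the limit, at 21.2 and 18.1 in Salv CKO and 24.6 and 17.4 in Control. The list's summed intensity was 19696 and 19716 in Salv CKO, against 22721 and 23847 in Control. Cyba alone was at 1442 and 1594 in Salv CKO, against 2921 and 3339 in Control. Without overlap, 11 of the 39 had Salv CKO below Control and 8 above, where 29.0% and 25.2% of all genes did so. The list's median difference was -0.17, against -0.04 for all genes.

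Among 23 leukocyte genes that are not particular to macrophages, 1 fell and 0 rose, where 5.70% of all genes fell and 4.92% rose. The call was Hcls1, a cortactin-like protein of blood cells, at 297 and 323 in Salv CKO, against 587 and 751 in Control (-1.10 ± 0.16, limma adjusted p = 0.0213). Cd53 and Cd52, surface proteins of leukocytes, were picked after their values were seen. On their main probes they lay on opposite sides, at -1.40 ± 0.31 and 0.94 ± 0.22 (limma adjusted p = 0.0557 and 0.0612). The second probe of Cd52 gave 0.11 ± 0.49 with overlapping groups (limma adjusted p = 0.926 over all named probes). That of Cd53 was above background on 1 array only, and its groups overlapped.

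Of 21 transcription factors of blood cells 2 fell and 0 rose, where 5.70% of all genes fell and 4.92% rose. Gfi1b, a repressor needed for red cells and megakaryocytes, was at 83.7 and 84.6 in Salv CKO, against 201 and 210 in Control (-1.29 ± 0.19, limma adjusted p = 0.0216). Zfpm1, the cofactor FOG1 through which Gata1 acts in megakaryocytes, fell by 0.34 ± 0.06 (limma adjusted p = 0.0350). Sfpi1, the Ets factor PU.1 that drives Csf1r in myeloid cells, was named after its value was seen: it was at 180 and 173 in Salv CKO, against 342 and 614 in Control (-1.38 ± 0.30, limma adjusted p = 0.0541). Of the factors tied to the motifs above, also named after their values were seen, Gata2 was at -0.92 ± 0.21 and Gata1 at -0.59 ± 0.25 (limma adjusted p = 0.0573 and 0.218). The Ets factor Fli1 was at 0.38 ± 0.14 (limma adjusted p = 0.166), so none of the 3 was called. The groups did not overlap for 14 of the 21 factors. Salv CKO lay below for 11 and above for 3, where 29.0% and 25.2% of all genes did so. Runx1, Nfe2 and Erg were below background on all arrays.

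The lists of other cell types moved in the same pools, and their part in the values of Cxcl4 and Csf1r was not tested. Beside the counts that follow, 5.70% of all genes fell and 4.92% rose. The primitive red cell list had 15 genes, of which 5 fell and 0 rose, with the haem synthesis enzyme Alas2 at -0.94 ± 0.07 and the membrane scaffold Ank1 at -1.01 ± 0.13 on its main probe. Their summed intensity was 120266 and 120619 in Salv CKO, against 146990 and 147972 in Control. Of 24 endothelial genes 9 fell and 1 rose, with the TGF-beta co-receptor Eng at -1.08 ± 0.07, which is close to Cxcl4, and the claudin Cldn5 at 0.86 ± 0.12. The summed endothelial intensity was 27622 and 27659 in Salv CKO, against 41763 and 41846 in Control. Among 15 heart muscle genes 8 fell and 0 rose. In the neural list 4 of 14 rose and 1, Nes on its main probe, fell. Sox2 was at 1687 and 1343 in Salv CKO, against 138 and 96.9 in Control. Neurog2 was at 725 and 767 in Salv CKO, against 41.3 and 30.4 in Control. Hes5 rose by 2.83 ± 0.17. Zic1 was at 4750 and 4084 in Salv CKO, against 5.10 and 55.9 in Control. In the yolk sac and endoderm list 2 of 13 rose, Afp and Rbp4, and 0 fell. The median differences were -0.62 for red cell, -0.54 for endothelial and -0.67 for heart muscle genes. They were 0.54 for neural and 0.42 for yolk sac and endoderm genes. The 10 platelet and macrophage genes had -0.33, with -0.61 for the 3 platelet genes and -0.11 for the 7 macrophage genes.

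**Figure D3:**
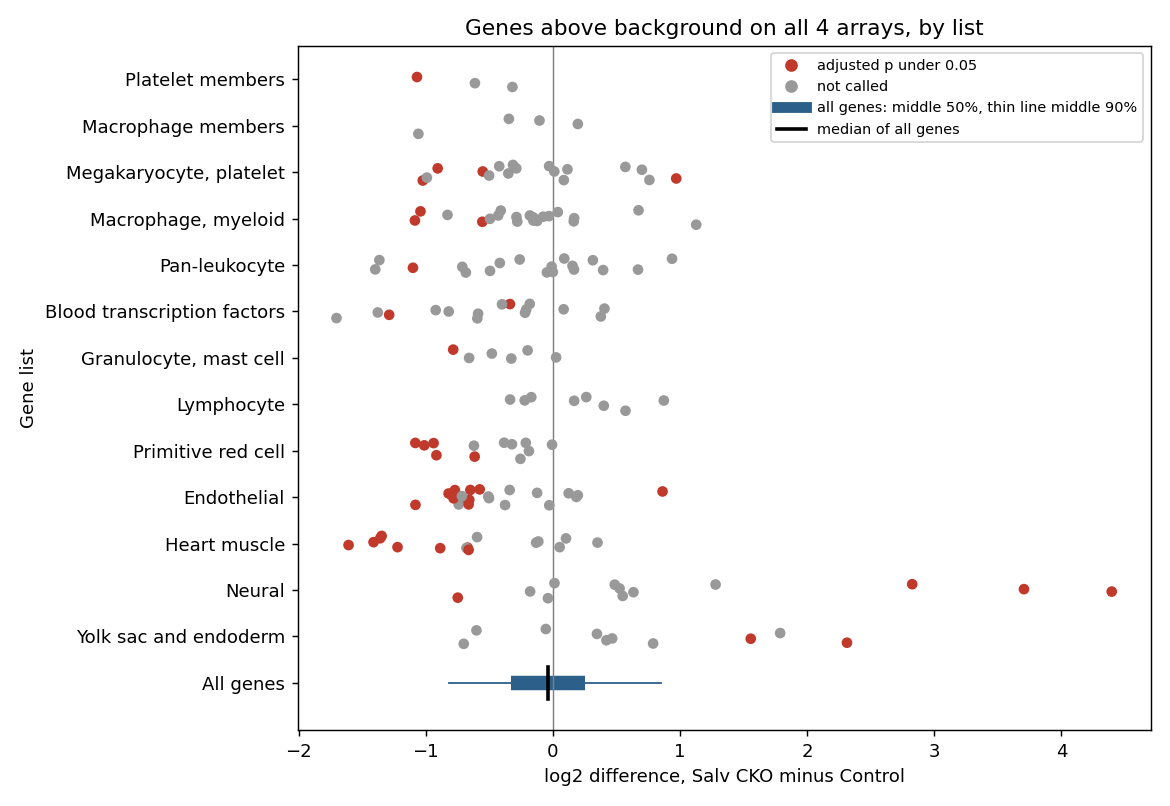
Log2 difference (Salv CKO minus Control) of each gene above background on all 4 arrays, 1 row per list, red where the adjusted p was under 0.05, with the middle 50% and 90% of all such genes at the bottom. The 3 platelet members lie between -1.07 and -0.32 and the 4 measured macrophage members between -1.06 and 0.20, inside the range of the endothelial list, while the highest neural genes lie above 2.

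Under the 14 other ways of processing the values, the 3 platelet genes stayed lower in Salv CKO in each. Cxcl4 ranged from -1.51 to -0.86 and was called under 8 of them, Gp1bb from -0.94 to -0.40 and Gp9 from -0.66 to -0.14, neither of which was called under any. Csf1r stayed between -1.36 and -0.71 and was called under 5, and Cd68 stayed between -0.46 and -0.05 with no call. The lowest values of Cxcl4, Csf1r, Gp1bb and Gp9 were those without scaling between arrays, where the median of all measured genes was itself -0.44. C1qa and Mrc1 changed sign when single arrays were left out, Mrc1 also without scaling.

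**Figure D4:**
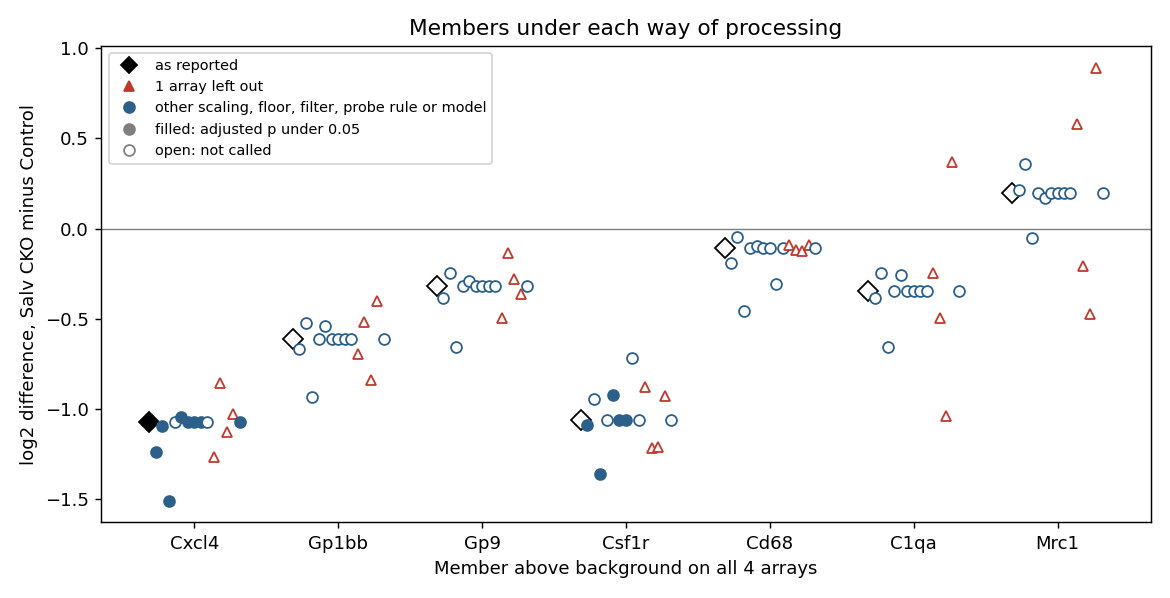
Log2 difference (Salv CKO minus Control) of the 7 members above background, as reported (black diamonds), with 1 array left out (red triangles) and under the other scalings, floors, filters, probe rules and models (blue circles), with filled symbols for an adjusted p under 0.05. Cxcl4 stays at or below -0.86 and Csf1r at or below -0.71, while C1qa and Mrc1 fall on both sides of 0.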

How the data were processed

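RNA from 4 pools of E9.5 whole hearts was amplified, labelled with Cy5 and hybridised to 1 array each, per the labels' protocols. The deposited values are linear probe intensities; what produced them (scanner, background method, software) is not stated in the labels. From 3.37 to 5.99% per array lay below 0, so background had been subtracted.

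The 29922 probes were quantile normalised, floored at 1 and put on the log2 scale. The background limit of 16 is about 3 times the noise of 4.36 to 6.28 read from values below 0; a group below it on every array enters an "at least" fold at the limit. The platform's gene table gave 1 symbol to 21020 probes, and all 10 genes matched. The brightest probe stood for each of 16675 genes. Groups were compared with limma 3.58.1 in R 4.3.3 (lmFit, eBayes with an intensity trend, two-sided, Benjamini-Hochberg), which was tested on simulated data. Second probes were adjusted over all 21020 named probes.

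Gene lists were matched by symbol or RefSeq synonym. The rule named every gene of the partner list. Of each other list it named up to 6 called genes, or the 4 largest differences where more were called. For other cell types mostly counts are given. The genes and lists were chosen with earlier results of these data known. Promoters are RefSeq's (GRCm38.p6); the platform names no build. Precision is limited by the number of arrays. The alternatives were 3 scalings, 2 floors, 2 filters on dim genes, the mean of a gene's probes, no intensity trend, each array left out and a replicate block.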

Additional observations from a re-analysis of the deposited data

How the results depend on the processing

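Of the 10 genes 1 was called, and the count was 2 (Cxcl4 and Csf1r) with arrays centred on their medians, as deposited, with a pseudocount of 16 and with only genes above 16 on all 4 arrays or on at least 2. It was 0 with a floor of 16, with no intensity trend, and with any 1 array left out (0 to 0). Over all genes 1772 were called, 3330 as deposited, 481 with a floor of 16, 2676 with only genes above 16 on all arrays, and 0 with no intensity trend (3578 at an unadjusted limma p under 0.05) or with any array left out (0 to 0 called; 3172 to 3438 unadjusted). The fewer calls with 1 array left out come with fewer samples; other causes were not tested. The median difference of the 10 genes stayed between -0.66 and -0.21. Mrc1, at 0.20, was at -0.054 as deposited and ranged from -0.47 to 0.89 with 1 array left out, and C1qa, at -0.35, from -1.04 to 0.37; none of these was called. Same-numbered pools deviated together with r = 0.170 over genes, but share only a number. With the replicate block 2211 genes were called, and of the 10 genes 1, Cxcl4 (-1.07, limma adjusted p = 0.0276); the calls of Sirpb1 (limma adjusted p = 0.0511) and the embryonic globin Hbb-y (0.0514) were lost. Of 34 called genes followed through the alternatives, 25 lost the call with a floor of 16, 5 with the mean of a gene's probes (Mpo, Ank1, Ttn, Nes and Tgfbr2), 2 as deposited (Mmrn1 and Cldn5) and 1 with a pseudocount of 16 (Sirpb1). Genes near the background limit, such as C1qb and Cx3cr1, are limited by signal over background.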

Other observations

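Genes of other white blood cells gave few calls, where 5.70% of all genes fell and 4.92% rose. Of 12 granulocyte and mast cell genes 1 fell and 0 rose: the myeloperoxidase gene Mpo, also made by early myeloid progenitors, was at 197 and 171 in Salv CKO, against 318 and 314 in Control on its main probe (-0.78 ± 0.15, limma adjusted p = 0.0431), and its other probe gave -1.05 ± 0.46 with no call. Of 10 lymphocyte genes 0 were called by limma, and 1 had an unadjusted p under 0.05.

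Signals that act on macrophages, or that macrophages send, gave 1 call. Of 13 chemokine, cytokine and growth factor genes 0 were called by limma (5 at an unadjusted p under 0.05, where 26.7% of all genes were). Both Salv CKO pools lay below both Control pools for 8 of them and above for 1, where 29.0% and 25.2% of all genes did so, the groups overlapped for 4, and the median difference was -0.57. The macrophage chemokine Ccl4, picked after its values were seen, was at 28.2 and 33.5 in Salv CKO, against 63.4 and 87.7 in Control (-1.28 ± 0.35, limma adjusted p = 0.0908). Of 5 genes for signals that reach microglia, 1 fell and 0 rose, where 5.70% of all genes fell and 4.92% rose. Both Salv CKO pools lay below both Control pools for 3 of them, and their median difference was -0.76. The call was Tgfbr2, a receptor of TGF-beta, which keeps microglia in their state. It fell by 0.76 ± 0.11 (limma adjusted p = 0.0213) on its main probe. Its other probe was below background on all arrays, and the call was lost with the mean of its probes (-0.59, limma adjusted p = 0.721). Which cells of the whole hearts made this RNA was not tested.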
